A study of Mus musculus with 10 samples.

Results

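The genes described here are 45 interferon response and MHC class I genes, measured in the livers of cachectic and non-cachectic KL mice. They were taken by symbol from the type I and type II interferon-induced genes, the immunoproteasome and the class I presentation pathway. The rule uses no threshold on these data, but the list was drawn up with earlier results of the same livers known. All 45, out of 43629 genes in the count table, were kept by the low-count filter and belong to the 14143 genes tested. On GRCm38, 8 of them lie on chromosome 17 (Psmb8, Psmb9, Tap1, Tap2, Tapbp, H2-K1, H2-D1 and H2-T23, in or near the MHC), 8 on chromosome 11 and the rest on other autosomes.

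Interferons are cytokines that cells release when they sense viral nucleic acid or when lymphocytes are activated. Type I interferon signals through the receptor chains Ifnar1 and Ifnar2, the kinases Jak1 and Tyk2 and a complex that holds Stat2 and Irf9 and binds the interferon-stimulated response element. Type II interferon signals through Ifngr1, Ifngr2, Jak1 and Jak2, and its target genes can carry the gamma-activated sequence. The induced genes encode RNA sensors, antiviral effectors, GTPases that act on intracellular pathogens, T-cell-attracting chemokines, and the proteasome subunits and transporters that feed peptides to MHC class I molecules. Hepatocytes, Kupffer cells and endothelial cells of the liver can all respond to interferon.

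The livers came from 5 NCACS (non-cachectic) and 5 CACS (cachectic) male KL mice. KL mice are a genetically engineered model of lung cancer that carries Lkb1 f/f, backcrossed to FVB, and in both groups lung tumours had been started in adults of 12 to 20 weeks by intranasal adenovirus that carries Cre behind the CMV promoter, which is not restricted to one cell type. A loss of over 15% of peak weight defined CACS, and the labels give weight changes from -3 to -14% in the NCACS group (mice 11 to 15) and from -29 to -33% in the CACS group (mice 16 to 20). All 10 mice belonged to the tumour model and were fed chow, so the comparison has no tumour-free liver, and the age at collection is not given in the sources used here.

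Total counts were 31945328 to 38306888 per liver in the NCACS group and 31459179 to 40746178 in the CACS group, and levels are given below in CPM, read counts scaled by the library total after TMM normalisation. Hepatocyte markers were abundant in every liver, with 5 markers summing to 63827 to 113115 CPM in NCACS and 103854 to 130974 CPM in CACS livers. NCACS mice 13 and 15 stood apart from the other 8 livers in the genes described here. They were not extreme in total counts (31945328 and 33020012), but they had the lowest hepatocyte sums (74210 and 63827 CPM) and the largest weight losses of the NCACS group (-11 and -14%). Most of these sums was Alb (52622 and 45741 CPM), and the other markers were mixed. Ttr and Cps1 were lowest in mouse 15 (5602 and 1630 CPM), whereas Apoa1 was lowest in mouse 14 (5856 CPM). Serpina1c was highest of all livers in mouse 13 (3254 CPM). Because mice 13 and 15 stood apart, the fold changes of the 45 genes are given with and without them, a choice made after their levels had been seen.

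The interferon-stimulated response element can be seen in the reference promoters of many of these genes. RefSeq windows of 300 bases, from 250 before to 50 after a start on GRCm38.p6, were found for 37 of the 45 genes (43 windows). Its core, searched on both strands as GAAA, any 2 bases and GAAA again, occurred in 17 of the 43 windows (39.5%) and in 3.44% of all 32851 windows of this length. The core of the gamma-activated sequence, TTC, any 3 bases and GAA, which reads the same on both strands, occurred in 9 of the 43 windows (20.9%) and in 8.3% of all windows. The 2 motifs do not contain each other, although neighbouring matches can share bases. A match is only a description of letters, and some genes had more than 1 start and window.

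The stretches below, each of 30 bases on the strand of its gene, show the core where matches run into each other (Isg15, Irgm1, Oas1a, Bst2 and Gbp3) and in the genes with the smallest p-value among the RNA sensors (Ifih1) and the class I genes (H2-T23). Capitals mark the matched bases, and the core appears as TTTC, any 2 bases and TTTC where it lies on the opposite strand.
Isg15: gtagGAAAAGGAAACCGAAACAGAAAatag
Irgm1: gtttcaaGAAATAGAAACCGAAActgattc
Oas1a: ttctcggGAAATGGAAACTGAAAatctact
Bst2: attccagGAAAATGAAACTGAAAggctgca
Gbp3: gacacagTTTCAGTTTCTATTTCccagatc
Ifih1: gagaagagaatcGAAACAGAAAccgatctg
H2-T23: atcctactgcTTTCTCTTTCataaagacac
The Isg15 stretch, at chr4:156200871-156200900 on the reverse strand, held 3 overlapping matches, the first beginning at position -78 from the start. In Ifih1 (chr2:62646206-62646235, reverse strand) the match began at position 33 of the transcript. The other stretches lie at chr11:48871428-48871457 (Irgm1), chr5:120907523-120907552 (Oas1a), chr8:71537580-71537609 (Bst2) and chr17:36032806-36032835 (H2-T23) on the reverse strand, and at chr3:142559992-142560021 (Gbp3) on the forward strand. The windows of Xaf1, Psmb9, Tap1, Irf9 and Cxcl9 held neither motif.

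Between the groups, 2 of the 45 genes were lower in CACS livers past the threshold of edgeR's quasi-likelihood test, with p-values adjusted by Benjamini-Hochberg over all genes, the RNA sensor Ifih1 and the GTPase Iigp1, and 0 were higher. Among all genes tested, 1.92% were called lower and 1.89% higher (271 and 267 genes). At an unadjusted p under 0.05, 28 of the 45 were lower (10.3% of all genes) and 0 were higher (11.3%). By sign alone, 43 of the 45 log2 fold changes were negative (50.6% of all genes) and 2 were positive (49.4%), namely those of Stat2 and Nlrc5. The median log2 fold change was -0.74, against -0.01 over all genes tested. For 5 of the genes, Isg15, Xaf1, Ifih1, Iigp1 and Psmb9, every CACS liver lay below every NCACS liver, a pattern seen in 3.13% of all genes, and 0 showed the opposite (3.95%). With DESeq2, 16 of the 44 genes with an adjusted p-value were called lower (4.65% of all genes) and 0 higher (4.22%). In whole liver, fewer cells of a type and less RNA per cell cannot be told apart.

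**Figure D1:**
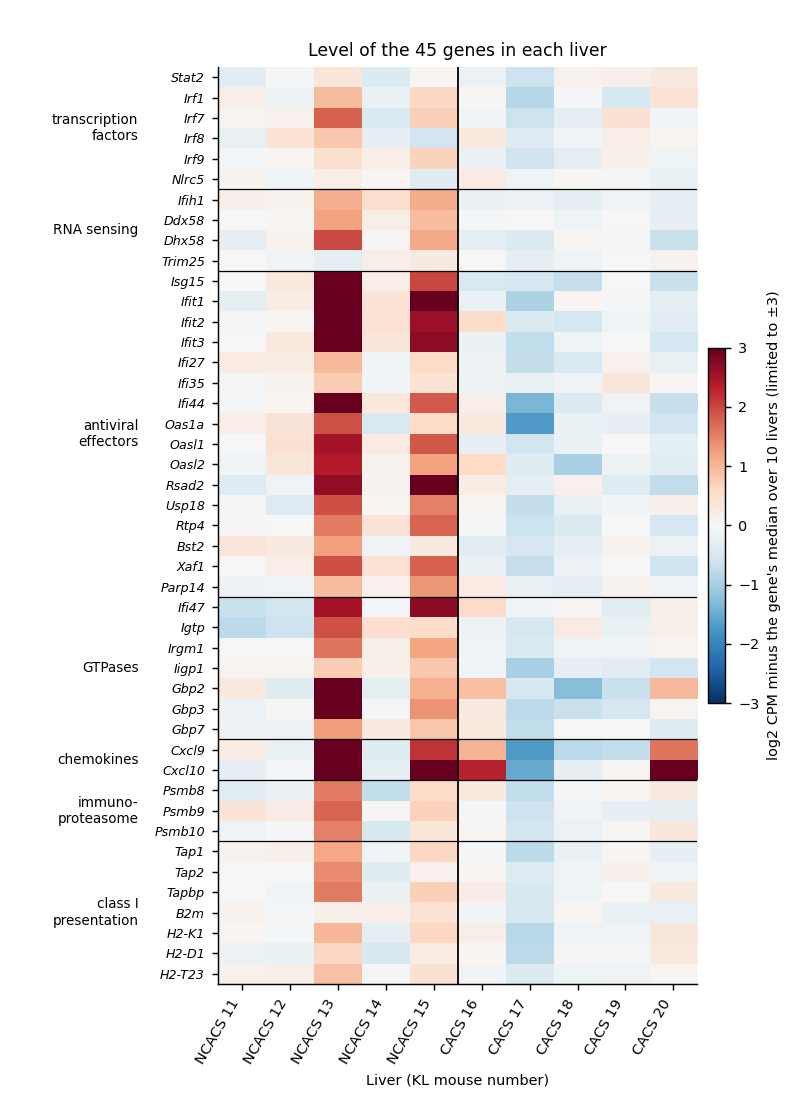
Heat map of log2 CPM minus the gene's median over the 10 livers, limited to ±3, for the 45 genes (rows, grouped by role) in each liver (columns, with a line between NCACS and CACS mice). Most rows are darkest red in NCACS mice 13 and 15, and CACS mouse 17 is the bluest column.

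The highest levels lay mainly in NCACS mice 13 and 15. Mouse 13 had the highest level of all 10 livers in 35 of the 45 genes, whereas it was highest in 14.1% of all genes tested. Mouse 15 was highest in 9 of the 45 (14.6% of all genes), and CACS mouse 16 in Nlrc5 alone. Mice 13 and 15 together were the top pair of livers in 37 of the 45 genes (82.2%) against 800 of all genes tested (5.66%). The exceptions were Stat2, Irf8, Nlrc5, Trim25, Bst2, Cxcl10, Tap2 and H2-D1. Relative to each gene's median over the 10 livers, the median of the 45 genes was 1.54 log2 units in mouse 13 and 0.81 in mouse 15. The same quantity was -0.57 in CACS mouse 17 and between -0.14 and 0.05 in the other 7 livers.

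**Figure D2:**
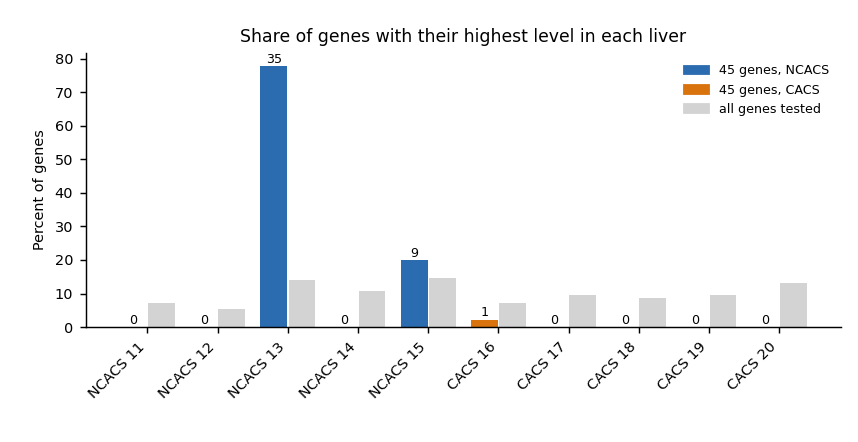
Bars give the percentage of genes whose highest level of the 10 livers was in the liver named on the x axis, for the 45 genes (blue, NCACS; orange, CACS; counts above the bars) and for all genes tested (grey). NCACS mouse 13 held the highest level of 35 of the 45 genes.

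Without mice 13 and 15, 0 of the 45 genes passed the edgeR threshold, while 132 of all genes did (0.591% lower and 0.316% higher). The median log2 fold change of the 45 genes was then -0.15, with 30 negative (49.3% of all genes) and 15 positive (50.7%). At an unadjusted p under 0.05, 9 were lower (8.4% of all genes) and 1 higher (9.02%). Over all livers of each group, mice 13 and 15 included, the 45 genes varied more between NCACS than between CACS livers. The SD of log2 CPM was then larger in the NCACS group for 43 of the 45 (95.6%) against 53.7% of all genes. The median SD over the same livers was 0.752 log2 units in NCACS and 0.317 in CACS livers for the 45 genes. For all genes it was 0.258 and 0.243. These SDs were not computed without mice 13 and 15.

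CACS livers also held an order among themselves. Mouse 17 was the lowest of the 5 CACS livers in 34 of the 45 genes (75.6%, against 20.2% of all genes) and the lowest of all 10 in 30. Mice 16 and 20 were the top pair of CACS livers in 13 of the 45 (28.9%, against 9.25% of all genes). These 13 were Irf1, Ifi47, Usp18, Gbp2, Gbp3, Cxcl9, Cxcl10, Psmb8, Psmb10, Tapbp, H2-K1, H2-D1 and H2-T23.

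**Figure D3:**
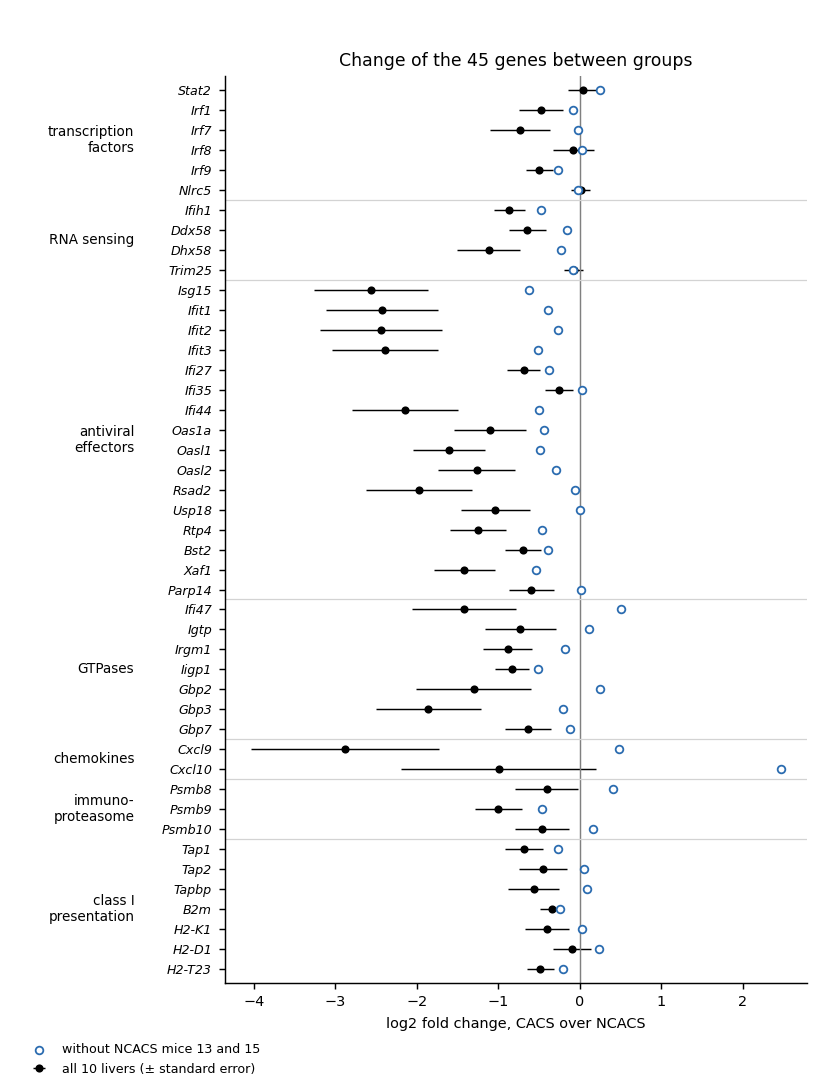
Log2 fold change of CACS over NCACS livers for each of the 45 genes, grouped by role, with all 10 livers (black, ± standard error) and without NCACS mice 13 and 15 (open circles). All black points but those of Stat2 and Nlrc5 lie left of 0, and most open circles lie closer to 0, with Cxcl10 at 2.47.

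The 6 transcription factors had a median log2 fold change of -0.28, the smallest shift of the 7 roles, and none passed the threshold. Stat2, a subunit of the type I complex, stood at 72.7, 87.5, 117, 68.3 and 95.4 CPM in NCACS mice 11 to 15 and at 80.9, 59.8, 100.3, 101 and 110.3 CPM in CACS mice 16 to 20. Its log2 fold change was 0.04 (edgeR adjusted p = 0.929, 0.25 without mice 13 and 15), and its sign changed when any of 4 single livers was left out. The groups overlapped throughout for Stat2. Irf9, the DNA-binding subunit of the same complex, stood at 34.6, 37.9, 50.6, 41.8 and 58.2 CPM in NCACS livers and at 31.6, 24.1, 29.4, 40.1 and 33.0 CPM in CACS livers. With a log2 fold change of -0.50 (edgeR adjusted p = 0.109, -0.27 without both mice), Irf9 had the smallest p-value of this role, and only CACS mouse 19 reached into the NCACS range.

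Irf7, the factor that amplifies type I interferon production, was measured at 31.4, 33.0, 102, 21.6 and 48.7 CPM in NCACS livers and at 28.3, 19.1, 24.7, 41.1 and 28.5 CPM in CACS livers. Mouse 13 alone set most of its log2 fold change of -0.74 (edgeR adjusted p = 0.271), which was -0.25 without mouse 13 and -0.02 without both mice. Irf1, an early interferon-induced factor, was measured at 45.2, 35.1, 75.4, 33.4 and 60.4 CPM in NCACS livers and at 40.0, 21.7, 38.3, 27.2 and 52.0 CPM in CACS livers (log2 fold change -0.48, edgeR adjusted p = 0.326, -0.08 without both mice). Irf8, a factor of myeloid cells, and Nlrc5, the transactivator of class I genes, had log2 fold changes of -0.08 and 0.01 (0.03 and -0.02 without both mice).

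Of the 4 genes of cytosolic RNA sensing, Ifih1 passed the threshold (1.92% of all genes were called lower) and Ddx58, Dhx58 and Trim25 did not. Ifih1 (ENSMUSG00000026896, chromosome 2 of GRCm38, 62595798 to 62646255, reverse strand) encodes MDA5, a sensor of long double-stranded RNA. It was measured at 25.3, 24.4, 48.3, 33.0 and 49.2 CPM in NCACS livers, where mice 13 and 15 were highest. In CACS livers it stood at 19.7, 20.1, 18.9, 21.2 and 19.2 CPM, a narrow range below every NCACS liver. The log2 fold change was -0.86 (standard error 0.194, edgeR adjusted p = 0.0359, DESeq2 adjusted p = 0.00171). Without mice 13 and 15 it was -0.48 (edgeR adjusted p = 0.0824). With 1 liver left out at a time, Ifih1 passed only without NCACS mouse 11 or 12 (adjusted p from 0.0280 to 0.0785 over the 10 fits).

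Ddx58, which encodes the RNA sensor RIG-I, stood at 25.2, 26.2, 58.8, 28.7 and 48.5 CPM in NCACS livers and at 24.3, 25.6, 23.4, 25.2 and 21.3 CPM in CACS livers. Dhx58, which encodes their regulator LGP2, stood at 7.92, 10.2, 37.6, 9.94 and 20.8 CPM in NCACS livers and at 7.77, 7.06, 9.69, 9.30 and 5.96 CPM in CACS livers. In both genes the CACS livers were close to NCACS mice 11, 12 and 14, and the log2 fold changes of -0.64 and -1.12 (edgeR adjusted p = 0.127 and 0.124) were -0.15 and -0.23 without mice 13 and 15. Trim25, a ubiquitin ligase that acts on RIG-I, stood at 105, 98.6, 85.8, 118 and 127 CPM in NCACS livers and at 104, 88.6, 96.0, 106 and 113 CPM in CACS livers. Mouse 13 had the lowest level of all, and the log2 fold change was -0.08 with all livers (edgeR adjusted p = 0.752) and without both mice.

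The 16 antiviral effectors and modifiers had a median log2 fold change of -1.34. All 16 were negative (50.6% of all genes), 14 of them with an unadjusted p under 0.05 (10.3% of all genes were lower at that p). None passed the edgeR threshold, whereas 11 were called lower with DESeq2, against 4.65% of all genes. Isg15 (ENSMUSG00000035692, chromosome 4 of GRCm38, 156199424 to 156200818, reverse strand), a ubiquitin-like protein that is conjugated to other proteins, had the largest fold change of this role. It was measured at 6.94, 8.41, 97.9, 7.86 and 27.7 CPM in NCACS livers and at 4.997, 4.77, 4.24, 6.82 and 4.32 CPM in CACS livers. The groups did not overlap, although CACS mouse 19 and NCACS mouse 11 were neighbours. The log2 fold change of -2.56 (standard error 0.704, edgeR adjusted p = 0.0645) was -1.34 without mouse 13 and -0.62 without mice 13 and 15 (edgeR adjusted p = 0.126).

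Xaf1 (ENSMUSG00000040483, chromosome 11 of GRCm38, 72301629 to 72313733, forward strand), an interferon-induced inhibitor of the apoptosis inhibitor XIAP, was measured at 6.38, 7.29, 24.2, 8.55 and 21.7 CPM in NCACS livers and at 5.50, 3.91, 5.58, 6.28 and 4.21 CPM in CACS livers. The groups did not overlap, with the closest livers at 6.38 and 6.28 CPM, and the log2 fold change was -1.42 (standard error 0.374, edgeR adjusted p = 0.0578, -0.54 without mice 13 and 15). Ifit2, one of the tetratricopeptide proteins that bind foreign RNA, was measured at 2.14, 2.32, 35.3, 2.98 and 13.2 CPM in NCACS livers and at 3.25, 1.65, 1.53, 2.03 and 1.78 CPM in CACS livers. Its log2 fold change of -2.44 (edgeR adjusted p = 0.0905) was -0.27 without both mice. Outside mice 13 and 15, the 8 other livers lay between 1.53 and 3.25 CPM for Ifit2, with CACS mouse 16 the highest of them.

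**Figure D4:**
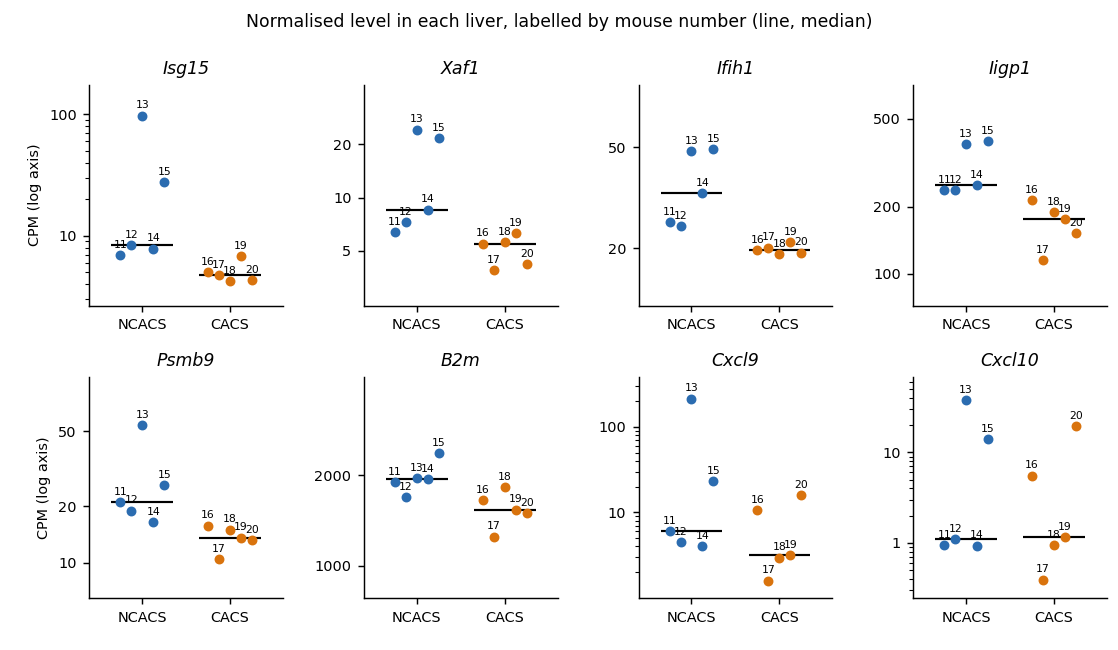
Normalised level (CPM, log axis) in each liver for Isg15, Xaf1, Ifih1, Iigp1, Psmb9, B2m, Cxcl9 and Cxcl10, with points labelled by mouse number and a line at the group median. NCACS mice 13 and 15 are the 2 highest points in all panels but that of Cxcl10, where CACS mouse 20 lies between them, and in the panel of B2m they are close to the other NCACS mice.

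Per kilobase of exon, Bst2 and Ifi27 had the highest levels of the antiviral role. Bst2 encodes tetherin, which holds budding virus at the cell surface, and stood at 109, 102, 201, 78.9 and 103 CPM in NCACS livers and at 68.0, 60.4, 70.8, 92.6 and 76.2 CPM in CACS livers. Ifi27, an interferon-induced mitochondrial protein, stood at 87.8, 86.8, 145, 68.1 and 113 CPM in NCACS livers and at 66.4, 45.2, 54.3, 81.2 and 63.3 CPM in CACS livers. Both had log2 fold changes of -0.69 (edgeR adjusted p = 0.103 for Bst2 and 0.0826 for Ifi27), and CACS mouse 19 overlapped the NCACS range in each. Their fold changes without mice 13 and 15 were -0.39 and -0.38. Of the remaining effectors, the RNA-binding proteins Ifit1 and Ifit3 had log2 fold changes of -2.43 and -2.39 (-0.39 and -0.52 without mice 13 and 15), Ifi44 of -2.14 (-0.50) and Rsad2, the radical-SAM enzyme viperin, of -1.97 (-0.06). The oligoadenylate synthetase genes Oas1a, Oasl1 and Oasl2 had log2 fold changes of -1.10, -1.60 and -1.27, which were -0.44, -0.49 and -0.29 without both mice. For Rtp4 the log2 fold change was -1.24 (-0.46 without both mice), and for the Isg15 protease gene Usp18 it was -1.03 (-0.00116). The ADP-ribosyltransferase gene Parp14 and Ifi35 turned in sign without both mice, from -0.59 to 0.01 and from -0.25 to 0.02. The median of the 16 genes was -0.39 without mice 13 and 15.

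The 7 interferon-inducible GTPases, which act on the membranes that enclose intracellular pathogens, had a median log2 fold change of -0.89. All 7 were negative (50.6% of all genes) and 5 had an unadjusted p under 0.05 (10.3% of all genes were lower at that p). Iigp1 passed the threshold (1.92% of all genes were called lower). Iigp1 (ENSMUSG00000054072, chromosome 18 of GRCm38, 60376027 to 60392634, forward strand) had the highest level per kilobase of the role. It was measured at 239, 237, 385, 249.9 and 395 CPM in NCACS livers and at 214, 114.8, 190.1, 177 and 152 CPM in CACS livers. Every NCACS liver was above every CACS liver, and the lowest was CACS mouse 17. The log2 fold change was -0.83 (standard error 0.204, edgeR adjusted p = 0.0468, DESeq2 adjusted p = 0.00363). It passed in none of the 10 edgeR fits with 1 liver left out, whose adjusted p ranged from 0.0551 to 0.104, and without mice 13 and 15 it was -0.51 (edgeR adjusted p = 0.179).

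Ifi47, another GTPase of the same family, was measured at 11.9, 12.9, 107, 18.4 and 123 CPM in NCACS livers and at 28.2, 17.8, 19.5, 15.2 and 21.1 CPM in CACS livers. Here the CACS livers lay mostly above NCACS mice 11, 12 and 14, and the log2 fold change turned from -1.42 (edgeR adjusted p = 0.220) to 0.50 without mice 13 and 15 (unadjusted p = 0.0371, edgeR adjusted p = 0.251). Igtp, also of this family, was measured at 18.7, 20.8, 121, 45.3 and 47.0 CPM in NCACS livers and at 28.8, 22.2, 37.98, 28.0 and 35.6 CPM in CACS livers, and its log2 fold change turned from -0.73 (edgeR adjusted p = 0.354) to 0.11. The guanylate-binding protein gene Gbp3 was measured at 3.59, 4.11, 39.3, 3.97 and 10.3 CPM in NCACS livers and at 4.85, 2.33, 2.55, 2.85 and 4.27 CPM in CACS livers. Its log2 fold change of -1.86 (edgeR adjusted p = 0.126) was -0.70 without mouse 13 and -0.21 without both mice. Irgm1 and Gbp7 had log2 fold changes of -0.89 and -0.64, which were -0.19 and -0.12 without mice 13 and 15. Gbp2 turned in sign, from -1.30 to -0.14 without mouse 13 and 0.25 without both mice.

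The chemokines Cxcl9 and Cxcl10, ligands of the chemokine receptor Cxcr3 on T cells, differed widely between livers of the same group. Cxcl9 was measured at 6.08, 4.48, 214, 4.07 and 23.4 CPM in NCACS livers and at 10.6, 1.6, 2.97, 3.16 and 15.8 CPM in CACS livers. Mouse 13 had the highest level by far, and CACS mice 16 and 20 were above NCACS mice 11, 12 and 14. The log2 fold change of -2.88 (standard error 1.15, edgeR adjusted p = 0.172, adjusted p not given by DESeq2) was -0.47 without mouse 13 and 0.49 without mice 13 and 15. Cxcl10 was measured at 0.949, 1.10, 38.1, 0.933 and 13.99 CPM in NCACS livers and at 5.55, 0.393, 0.946, 1.15 and 19.5 CPM in CACS livers, the lowest of which was 15 counts. High and low livers occurred in both groups, namely mice 13, 15, 16 and 20 against the other 6. For Cxcl10 the log2 fold change was -0.996 (standard error 1.19, edgeR adjusted p = 0.678), 0.38 without mouse 13 and 2.47 without mice 13 and 15 (edgeR adjusted p = 0.311).

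The immunoproteasome subunits Psmb8, Psmb9 and Psmb10 replace the constitutive catalytic subunits Psmb5, Psmb6 and Psmb7 in cells exposed to interferon and favour peptides that fit class I molecules. Psmb9 (ENSMUSG00000096727, chromosome 17 of GRCm38, 34181987 to 34187764, reverse strand) was measured at 21.0, 18.9, 53.9, 16.4 and 25.8 CPM in NCACS livers and at 15.8, 10.4, 15.01, 13.6 and 13.3 CPM in CACS livers. The groups did not overlap, with NCACS mouse 14 just above CACS mouse 16, and the log2 fold change was -0.998 (standard error 0.291, edgeR adjusted p = 0.0770, DESeq2 adjusted p = 0.0132). It was -0.59 without mouse 13 and -0.46 without mice 13 and 15.

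Psmb8 was measured at 19.2, 20.5, 69.3, 14.2 and 34.99 CPM in NCACS livers and at 29.0, 14.3, 22.8, 24.8 and 28.5 CPM in CACS livers. Psmb10 was measured at 34.9, 36.9, 107, 26.98 and 48.8 CPM in NCACS livers and at 39.7, 25.4, 33.2, 38.4 and 47.8 CPM in CACS livers. Both overlapped between the groups, and their log2 fold changes of -0.41 and -0.47 (edgeR adjusted p = 0.579 and 0.446) were 0.41 and 0.17 without mice 13 and 15. The constitutive subunits had log2 fold changes of -0.04 (Psmb5), -0.10 (Psmb6) and -0.10 (Psmb7), and none was called.

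The ratio of each inducible subunit to the constitutive subunit it replaces does not depend on library scaling. The log2 ratio of Psmb9 to Psmb6 was -2.36 ± 0.537 (SD, n = 5) in NCACS and -3.14 ± 0.298 (SD, n = 5) in CACS livers. The CACS ratio was lower by 0.773 log2 units on average, with p = 0.00794 in a two-sided exact permutation test. That is the smallest value that 5 livers against 5 can give, and any groups wholly apart give it. Benjamini-Hochberg adjusted over the 3 ratios, it was p = 0.0238 in this exact test. Psmb6 itself had a log2 fold change of -0.10, so the ratio largely follows Psmb9 and is not separate evidence. Every NCACS liver was above every CACS liver in this ratio, and the closest were NCACS mouse 14 at -2.71 and CACS mouse 16 at -2.78. Without mice 13 and 15 the mean difference was -0.456 (adjusted p = 0.161 in the exact permutation test). The remaining NCACS mice 11, 12 and 14 stood at -2.65, -2.68 and -2.71, and leaving livers out cannot make separate groups overlap. With 3 livers against 5 this test has fewer assignments and a larger smallest p-value, so it could hardly pass 0.05 after adjustment. Without CACS mouse 17 the mean difference was -0.658 (adjusted p = 0.0714 in the same exact test). The ratio of Psmb8 to Psmb5 differed by -0.153 (exact permutation p = 0.786), with Psmb5 itself low in NCACS mouse 12 (17.9 CPM) and CACS mouse 20 (16.3 CPM). For Psmb10 to Psmb7 the difference was -0.218 (exact permutation p = 0.651), and both of these ratios changed sign without mouse 13.

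**Figure D5:**
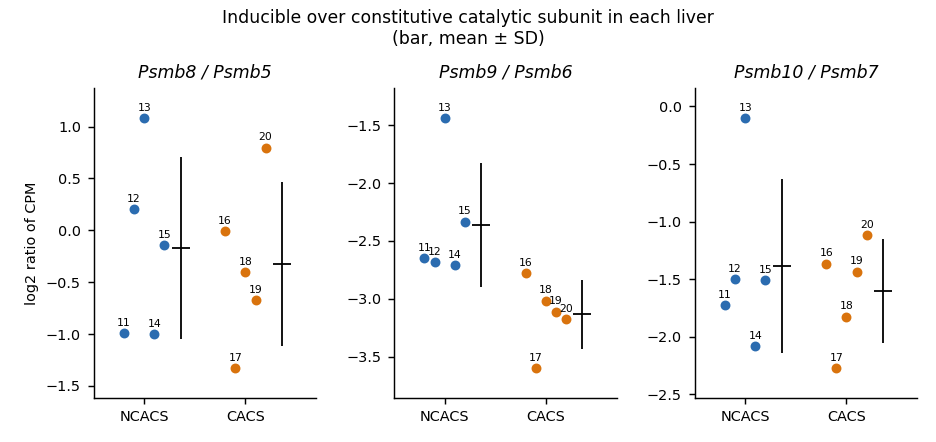
Log2 ratio of CPM of an inducible over its constitutive proteasome subunit in each liver (points, labelled by mouse number) with the group mean ± SD (bars, n = 5). For Psmb9 over Psmb6 all NCACS livers lie above all CACS livers, whereas the groups overlap in the other 2 panels.

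In GENCODE M21, the Psmb9 and Tap1 loci overlap at their 5′ ends on opposite strands. Reads of that overlap could be left uncounted or miscounted if the counting did not use strand. Tap1, a subunit of the transporter that carries peptides into the endoplasmic reticulum, was measured at 23.7, 24.6, 49.9, 20.6 and 34.2 CPM in NCACS livers and at 21.6, 12.9, 19.4, 22.7 and 18.6 CPM in CACS livers. CACS mice 16 and 19 overlapped NCACS mouse 14, and the log2 fold change was -0.68 (edgeR adjusted p = 0.124, -0.27 without mice 13 and 15).

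The 7 genes of class I peptide loading and presentation had a median log2 fold change of -0.45. All 7 were negative (50.6% of all genes) and none was called (1.92% of all genes were called lower). B2m, the light chain of every class I molecule, had the highest level per kilobase of exon of the 45 genes, 2287 CPM per kilobase in NCACS and 1803 in CACS livers. It was measured at 1899, 1685, 1954, 1935 and 2362 CPM in NCACS livers and at 1651, 1248, 1822, 1534 and 1499 CPM in CACS livers. Only CACS mouse 18 reached into the NCACS range for B2m, whose log2 fold change of -0.34 (edgeR adjusted p = 0.179) was -0.24 without mice 13 and 15. The heavy chain gene H2-D1 stood at 1149, 1124, 1992, 922 and 1514 CPM in NCACS livers and at 1353, 749.7, 1327, 1262 and 1586 CPM in CACS livers. The groups overlapped widely, and the log2 fold change of H2-D1 was -0.09 (edgeR adjusted p = 0.859) or 0.24 without mice 13 and 15.

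Tapbp, which encodes the loading factor tapasin, had the largest fold change of this role after Tap1. It stood at 69.1, 64.8, 201, 59.2 and 113 CPM in NCACS livers and at 80.1, 49.0, 62.6, 67.7 and 83.1 CPM in CACS livers. Mouse 13 was far above the rest, and the log2 fold change of -0.57 (edgeR adjusted p = 0.323) was 0.09 without mice 13 and 15. Log2 fold changes were -0.45 for Tap2, -0.40 for H2-K1 and -0.48 for H2-T23, and 0.05, 0.03 and -0.21 without mice 13 and 15. The H2 genes have close paralogues, and FVB mice carry another H2 haplotype than the reference strain, so levels of single H2 genes are uncertain. Reads of the Ifit, Oas and Gbp families could likewise be left uncounted or miscounted where copies are alike. Irf9 (with Rnf31), Igtp (with Irgm2) and Tapbp (with Zbtb22) overlap another gene on the same strand, and Irf7 (with Phrf1) and Rtp4 (with Masp1) on the opposite strand.

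Transcripts of the 10 interferon ligand genes listed were barely detected, and none passed the filter. Of the Ifna genes, only Ifna1, Ifna2 and Ifna4 were listed. Ifng had 8 counts over all 10 livers, which lay in NCACS mouse 13 (3 counts) and CACS mice 16 (2 counts) and 20 (3 counts). Ifnb1 had 1 count, in mouse 13, and Ifnk 4 counts. The other 7 ligand genes had 0 counts in every liver.

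Of 14 receptor and signalling genes, 12 were tested, with a median log2 fold change of -0.18. In this list edgeR called 1 gene lower (1.92% of all genes) and 0 higher (1.89%), and DESeq2 called 2 lower, Tyk2 and Ifngr2 (4.65%), and 1 higher, Pias1 (4.22%). Tyk2, the kinase bound to Ifnar1, was measured at 33.6, 35.1, 35.3, 30.3 and 29.2 CPM in NCACS livers and at 23.2, 23.9, 22.9, 27.9 and 24.1 CPM in CACS livers. Unlike most of the genes above, Tyk2 was at a like level in mice 13 and 15 and in the other NCACS livers, and the groups did not overlap. The log2 fold change was -0.42 (standard error 0.0900, edgeR adjusted p = 0.0314), and it was -0.43 without mice 13 and 15 (edgeR adjusted p = 0.0751). Tyk2 passed in 2 of the 10 fits with 1 liver left out.

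The receptor chains Ifnar1, Ifnar2 and Ifngr1 had log2 fold changes of 0.00, -0.23 and 0.05, and the kinases Jak1 and Jak2 of 0.00 and -0.19. Ifngr2 stood at 17.98 to 34.6 CPM in NCACS and 12.5 to 18.5 CPM in CACS livers (log2 fold change -0.65, edgeR adjusted p = 0.0617, -0.37 without mice 13 and 15). Pias1, a SUMO ligase known as an inhibitor of activated STAT proteins, stood at 14.04 to 15.04 CPM in NCACS and 16.96 to 17.9 CPM in CACS livers. Every CACS liver was above every NCACS liver for Pias1, whose log2 fold change was 0.25 with and without mice 13 and 15 (edgeR adjusted p = 0.0741 and 0.169).

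Of 54 other interferon-induced genes, 50 were tested, 48 had a negative log2 fold change (50.6% of all genes) and 25 were lower at an unadjusted p under 0.05 (10.3%). With edgeR 2 of the 50 were called lower (1.92% of all genes), and with DESeq2 14 of 51 (4.65%). The median log2 fold change of these 50 was -0.66, and mice 13 and 15 were the top pair of livers in 30 of them (60%, against 5.66% of all genes). Ifi27l2a, a homologue of Ifi27, was one of the called genes, at 4.85 to 5.98 CPM in NCACS and 2.31 to 4.05 CPM in CACS livers (log2 fold change -0.85, edgeR adjusted p = 0.0255). Mice 13 and 15 (5.98 and 5.65 CPM) were close to mouse 12 (5.90 CPM) in this gene, and its log2 fold change was -0.82 without them (edgeR adjusted p = 0.0947). Lgals9, which encodes the lectin galectin-9, was the other, at 451 to 711 CPM in NCACS and 328 to 493 CPM in CACS livers (log2 fold change -0.68, edgeR adjusted p = 0.0420). The log2 fold change of Lgals9 was -0.52 without mice 13 and 15 (edgeR adjusted p = 0.165). Of 12 genes of nucleic acid sensing and interferon induction 10 were tested, and of 19 other class I genes 18 were tested, with 0 called by edgeR in either list. The median log2 fold changes of these 2 lists were -0.03 and -0.29. At an unadjusted p under 0.05, 1 and 6 of their genes were lower (10.3% of all genes) and 2 and 0 higher (11.3%). DESeq2 called 1 and 2 lower (4.65% of all genes).

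Markers of other cell types were read in the same livers, and their part in these results was not tested. The summed level of 6 Kupffer cell markers was 149.9 to 250.8 CPM in NCACS and 87.3 to 175 CPM in CACS livers. All 6 had a negative log2 fold change (50.6% of all genes). Cd5l was called lower (1.92% of all genes), at -0.90 (edgeR adjusted p = 0.0374) and -0.99 without mice 13 and 15 (edgeR adjusted p = 0.0871). In mice 13 and 15 the Kupffer sum was 219.7 and 197.9 CPM, within the range of the other NCACS mice, and in CACS mouse 17 it was the lowest of all. The pan-leukocyte marker Ptprc stood at 6.68 to 15.5 CPM in NCACS and 4.01 to 10.3 CPM in CACS livers, highest in mouse 13 and lowest in mouse 17. Summed over their lists, 6 T and NK cell markers stood at 1.01 to 3.95 and 1.35 to 2.80 CPM in the NCACS and CACS livers, 4 monocyte markers at 3.31 to 21.8 and 2.36 to 10.04 CPM, and 3 neutrophil markers at 1.29 to 11.5 and 0.979 to 2.32 CPM. Mouse 13 was the highest liver for the T and NK cell and the neutrophil sums, and mouse 12 for the monocyte sum. Sums of 3 B cell markers (1.39 to 3.61 and 0.394 to 1.34 CPM) and 3 plasmacytoid dendritic cell markers (0.593 to 1.81 and 0.254 to 1.47 CPM) were low in both groups. Sinusoidal endothelial markers summed to 106.5 to 147.6 and 137.5 to 183.2 CPM, and stellate markers to 118.0 to 183.4 and 138.5 to 222.9 CPM. Mice 13 and 15 were the lowest pair of all livers in both of these sums (106.5 and 109.0, and 118.0 and 122.5 CPM). Cholangiocyte markers summed to 3.97 to 6.47 and 2.38 to 6.01 CPM, highest in mouse 13. No marker of these lists other than Cd5l was called. The neutrophil marker Ly6g and all 4 lung epithelial markers were at 0 in at least 1 liver. The lung epithelial sum was 0.0890 to 4.36 CPM in NCACS and 0.0262 to 5.58 CPM in CACS livers. It was near the floor in NCACS mouse 11 and CACS mice 17 and 19 (0.0890, 0.0262 and 0.113 CPM). In other livers Sftpc reached 105 counts and Scgb1a1 124 counts.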

How the data were processed

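Liver RNA from 10 male KL mice (5 NCACS, 5 CACS) was sequenced as stranded poly(A) libraries. According to the labels and the study's methods, the authors aligned single-end reads of 100 bases to GRCm38 with STAR 2.4.1d, counted them per gene with HTSeq 0.6.1, and deposited raw counts without normalization. The annotation release and the strand setting are not given in the sources used here, and neither is a batch. Groups and mouse numbers came from the labels. The table had 0 unused columns. Symbols came from GENCODE M21, and 1081 identifiers (70 among the tested genes) had none.

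From the deposited counts, genes were filtered with filterByExpr, normalised by TMM and tested with edgeR 4.0.16 in R 4.3.3, with a Benjamini-Hochberg adjusted p under 0.05 as the threshold and a prior count of 2 for log2 CPM. DESeq2 1.42.0 and limma 3.58.1 served as alternatives, together with other scaling factors, filters and thresholds and the omission of each liver. Scripts were tested on simulated data. No pair of livers in a group was a duplicate (smallest chi-square per degree of freedom, 34.5). Counting error limits Cxcl10 most, with as few as 15 counts in a liver.

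The 45 genes and all lists were chosen with earlier results of these data known. Genes given in every liver were those past the threshold or without overlap between groups, and in each role the 2 with the highest level per exon length and the 2 with the largest absolute log2 fold change. Mice 13 and 15 were left out together only after the data had been seen. Promoter sequences came from RefSeq (GRCm38.p6). A few items are not reported here. The study's batch correction spans libraries not analysed here.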

Additional observations from a re-analysis of the deposited data

Results flagged for a closer look

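Within groups of 5 livers, the gap of the highest or lowest liver to its neighbour, as a share of the group's range, was set against Dixon's critical value of 0.71 for the 26 genes given in every liver and the 3 ratios. On the log2 scale 0 of 58 groups passed, and on the CPM scale 9 of 52 did. A rate of about 1 in 20 by chance would hold only for independent, normally distributed groups. The genes here share the same livers and were partly chosen by fold change, so the 9 cannot be set against that rate. NCACS mouse 13 was the liver that stood out in 7 of the 9, namely in Isg15 (0.771), Bst2 (0.752), Igtp (0.723), Gbp3 (0.811), Cxcl9 (0.908), Psmb9 (0.749) and Psmb10 (0.729). The other two were CACS mouse 16 for Ifit2 (0.712) and CACS mouse 20 for Cxcl10 (0.730).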

How the results depend on the processing

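With 5 livers a group, the counts of calls depended on single mice and on the tool, and the cause was not tested. Against 538 genes called by edgeR, DESeq2 called 1376, thresholds of 0.01 and 0.1 gave 34 and 1237, leaving out 1 liver gave 178 to 519 and leaving out mice 13 and 15 gave 132. Of the 45 genes, 2 were called by edgeR, 16 by DESeq2, 0 and 12 at thresholds of 0.01 and 0.1, 0 to 1 with 1 liver left out and 0 without mice 13 and 15. Their median log2 fold change of -0.74 lay between -0.90 and -0.45 with 1 liver left out and was -0.15 without mice 13 and 15.

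The log2 ratio difference for Psmb9 over Psmb6 lay between -0.862 and -0.543 with 1 liver left out and was -0.456 without mice 13 and 15. For Psmb8 over Psmb5 it lay between -0.433 and 0.159, and was 0.272 without both mice, and for Psmb10 over Psmb7 between -0.392 and 0.103, and 0.168. Among the 26 genes given in every liver, the sign of the log2 fold change turned without both mice for Ifi47 (0.50), Igtp (0.11), Cxcl9 (0.49), Cxcl10 (2.47), Psmb8 (0.41), Psmb10 (0.17), Tapbp (0.0917) and H2-D1 (0.24), and among the other 19 for Gbp2, Tap2, Irf8, H2-K1, Ifi35, Parp14 and Nlrc5. With 1 liver left out it turned for Stat2 (-0.0401 to 0.16), Cxcl10 (-2.43 to 0.38), Psmb8 (-0.59 to 0.10), Psmb10 (-0.63 to 0.00105), H2-D1 (-0.20 to 0.0931), Irf8 (-0.21 to 0.16) and Nlrc5 (-0.06 to 0.07). The scaling factors, filters, limma-voom and the robust fit turned no sign and changed no call among these 26 genes. With limma-voom, however, log2 fold changes were smaller by over 1.5 times for Isg15 (-1.70), Ifit2 (-1.49), Ifi47 (-0.70), Igtp (-0.41), Gbp3 (-1.16), Cxcl9 (-1.48), Cxcl10 (-0.59) and Psmb8 (-0.20). No paired analysis was possible because NCACS mice are numbered 11 to 15 and CACS mice 16 to 20.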
